A study of Mus musculus with 27 samples.

Results

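NIH/3T3 fibroblasts, a long-established line from mouse embryos, were compared at opposite phases of the 24 h day that followed a forskolin pulse. The comparison set the 6 arrays taken 18 h and 42 h after the pulse against the 6 taken 6 h and 30 h after it, 12 of the 27 arrays of the series. Members were chosen by their labelled times only, 3 arrays at each of the 4 times, with 1 array from each of 3 experiments that the labels call biological replicates. All groups shared their history: serum was lowered in steps, the cultures then had a 2 h pulse of 15 µM forskolin in serum-free medium, and after a rinse they stayed without serum until harvest. Forskolin activates adenylyl cyclase and so raises cyclic AMP. The samples were whole flasks of 1 cell line, cultures that had no pulse were not used here, and the first harvest came at the end of the pulse and not from untreated cells. The 6 h and 18 h arrays made up the first cycle and the 30 h and 42 h arrays the second.

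Cells keep daily time with a feedback loop of transcription. CLOCK and ARNTL (BMAL1) activate genes with E-boxes in their promoters, among them the period and cryptochrome genes, whose proteins then repress that activation. A further loop joins the nuclear receptors REV-ERB (Nr1d1 and Nr1d2), which repress Arntl, and ROR (Rora), which activate it, and the PAR bZIP factors Dbp and Tef carry the rhythm to output genes through D-boxes. In fibroblast cultures each cell holds its own clock, and a serum or forskolin stimulus sets these clocks to a common phase. Times 12 h apart lie at opposite phases of such a rhythm, and times 24 h apart at the same phase.

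A gene with a 24 h rhythm moves from 6 h to 18 h, back from 18 h to 30 h, and again from 30 h to 42 h. The 18 h and 42 h arrays also lay on average 12 h later in the culture than the 6 h and 30 h arrays, 30 h against 18 h. A steady drift therefore gave the same sign in both cycles too, and the step from 18 h to 30 h is given for that reason. All levels are log2 intensities after quantile normalization. Differences are 18 h and 42 h minus 6 h and 30 h on that scale, ± SE from the fit with experiment and cycle as blocks (n = 6 arrays a group), and adjusted p-values come from limma with Benjamini-Hochberg adjustment over 7453 probe sets, called below 0.05. The experiment block takes out differences in level between the 3 experiments. The spread behind the p-values therefore holds the scatter of the steps between experiments and any difference between the cycles.

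The arrays were alike in overall signal, with median intensities from 168.0 to 200.65 and actin 3′ to 5′ ratios from 1.199 to 1.728. Of 17 fibroblast markers on the array 16 passed the filter on low values, and 0 of the 16 were called between the phases by their brightest probe set, although other probe sets of Col3a1 were. Of 61 markers of muscle, neurons, immune cells, epithelium, endothelium and fat cells on the array 24 passed the filter, and 0 of these 24 were called. With 0.603% of all 5643 genes called, counts of 0 in groups this small say little about the markers.

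The experiment 1 arrays labelled 18 h and 30 h went against the other experiments in clock genes. From 18 h to 30 h Dbp read 8.44 and 4.71 in experiment 2 and 7.57 and 6.52 in experiment 3, but 7.63 and 10.21 in experiment 1. The Dbp levels of 4.71 and 6.52 lay below the lowest mean that passed the filter on low values, 6.77. Tef read 11.08 and 9.82 in experiment 2 and 11.02 and 10.40 in experiment 3, against 9.48 and 11.45 in experiment 1. Their actin 3′ to 5′ ratios, 1.506 and 1.496, lay inside the range of the other arrays. These arrays were singled out on clock genes after the values had been seen, so the clock genes' behaviour without them is a description and no independent support. Whether the labels of these arrays are right was not tested, and each experiment 1 pair and each experiment 1 step from 18 h to 30 h rests on them. Leaving them out removed both experiment 1 pairs, and results are given with and without them. The experiment 1 arrays at 6 h and 42 h stayed in the fit without them, so its values do not rest on experiments 2 and 3 alone.

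The promoter stretches shown here were taken from genes whose windows held a motif. They are Per3, the one gene called without those arrays, and Tef, an output factor that was not called, with an E-box at both of its start sites. Dusp1 and Klf4 were the only genes among the 12 largest rises whose windows held an E-box. No window was found for Nfib and Vcam1 among those 12, and the windows of Dpt, Entpd2, Agtr2 and Rora held none of the motifs searched. The stretches come from RefSeq windows of 300 bases around annotated start sites (GRCm38.p6) and are written 5′ to 3′ on the gene's strand. Capitals mark the motif, the D-box TTATGTAA in Per3 and the E-box CACGTG in the others.
Per3, chr4:151044786-151044900, minus strand: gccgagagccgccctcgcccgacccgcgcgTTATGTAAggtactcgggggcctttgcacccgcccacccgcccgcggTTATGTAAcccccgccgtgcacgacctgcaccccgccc
Tef, chr15:81802506-81802591, plus strand: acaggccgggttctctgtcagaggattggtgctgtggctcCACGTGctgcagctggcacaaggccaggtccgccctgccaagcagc
Tef, chr15:81811236-81811321, plus strand: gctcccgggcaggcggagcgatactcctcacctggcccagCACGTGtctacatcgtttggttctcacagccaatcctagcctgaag
Dusp1, chr17:26508553-26508638, minus strand: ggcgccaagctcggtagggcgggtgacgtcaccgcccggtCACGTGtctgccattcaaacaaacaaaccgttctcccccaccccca
Klf4, chr4:55532612-55532697, minus strand: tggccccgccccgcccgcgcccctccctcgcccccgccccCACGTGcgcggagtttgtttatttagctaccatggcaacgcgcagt

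The D-boxes of Per3 began 205 and 158 bases before the annotated start, the E-boxes of Tef 127 and 138 bases before its start sites, that of Dusp1 126 and that of Klf4 182. Windows were found for 31 of the 36 genes called in the phase comparison and for 14 of 17 clock genes. The E-box CACGTG, which reads the same on both strands, was in 6 of 40 windows of called genes (15.0%) and 4 of 22 windows of clock genes (18.2%), against 7.15% of 32851 windows. The D-box, searched as TTATGTAA or TTACGTAA on both strands, was in 0 of 40 windows of called genes and in the windows of Per3 and Timeless, against 1.06% of all windows. The ROR response element (RORE), bound by ROR and REV-ERB and searched by its consensus on both strands, was in 0 windows of called genes and in 1 of Arntl, against 0.435% of all windows. The E-box and D-box letters cannot overlap each other, and a match describes the window only.

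Of 7453 probe sets 38 differed between the phases, 0.510%, of which 21 (0.282%) were higher and 17 (0.228%) lower at 18 h and 42 h. They represented 36 genes. The rises included matrix and membrane genes (Dpt, Entpd2, Agtr2, Vcam1), the signal-induced genes Dusp1, Klf4 and Mcl1, and 1 clock gene, Rora, and the falls included the glutathione transferases Mgst2 and Gstm2 and the muscle-type actin-associated genes Tagln and Csrp2. The median size of the 38 differences was 0.60, and they ran from 0.31 to 1.60. In bulk RNA such as this, fewer cells in a state and less RNA per cell cannot be told apart. At an unadjusted p below 0.05 there were 1261 (16.9%), the 38 included. A fit of the 4 time means with experiment as a block, chosen after the data were seen, called 247 (3.31%), with all 38 among them. With the 6 pairs of experiment and cycle as blocks 10 were called, all of them among the 38: Dpt, Entpd2, Agtr2, Rora, Nfib, Prss23, Col3a1, Dap, Fgfr2 and Hps1. The other 28, Mgst2, Dusp1, Klf4 and Tagln among them, lost their call there.

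All 38 had the same sign in both cycles, as had 55.8% of all probe sets, and in all 38 every one of the 6 pairs of experiment and cycle ran the same way, as in 8.88% of all probe sets. Both counts follow in part from the test itself. For 4 of the 38, Entpd2, Dusp1, Vcam1 and a probe set with no gene name here, the phases did not overlap, as for 0.376% of all. For Vcam1 the margin was thin, with a lowest 18 h or 42 h array of 10.147 and a highest 6 h or 30 h array of 10.141. The first cycle gave the larger difference in 27 of 38 (71.1%), against 58.9% of all same-sign probe sets. With 18 h against 6 h alone 32 of the 38 were called, against 5.09% of all probe sets. This follows in part from their selection on the same arrays. With 42 h against 30 h alone 0 of the 38 were called. That comparison called 1 of 7453 probe sets (0.0134%), so the 0 says little about the 38. A difference between the cycles was called for 0 of the 38 and had an unadjusted p below 0.05 for 10, but the fit counts such a difference as spread and so passes over probe sets that have a large one.

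Without the experiment 1 arrays labelled 18 h and 30 h, all 38 kept their direction and an unadjusted p below 0.05, but 0 of the 38 were called, with a smallest adjusted p of 0.0918. What they kept follows in part from their selection, since the remaining arrays are among those on which they were called. The comparison then called 1 of 7453 probe sets (0.0134%), that of Per3, and 985 (13.2%) had an unadjusted p below 0.05. Without experiment 1, 2 or 3 as a whole the counts were 0, 1 and 0, the 1 being Dpt.

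**Figure D1:**
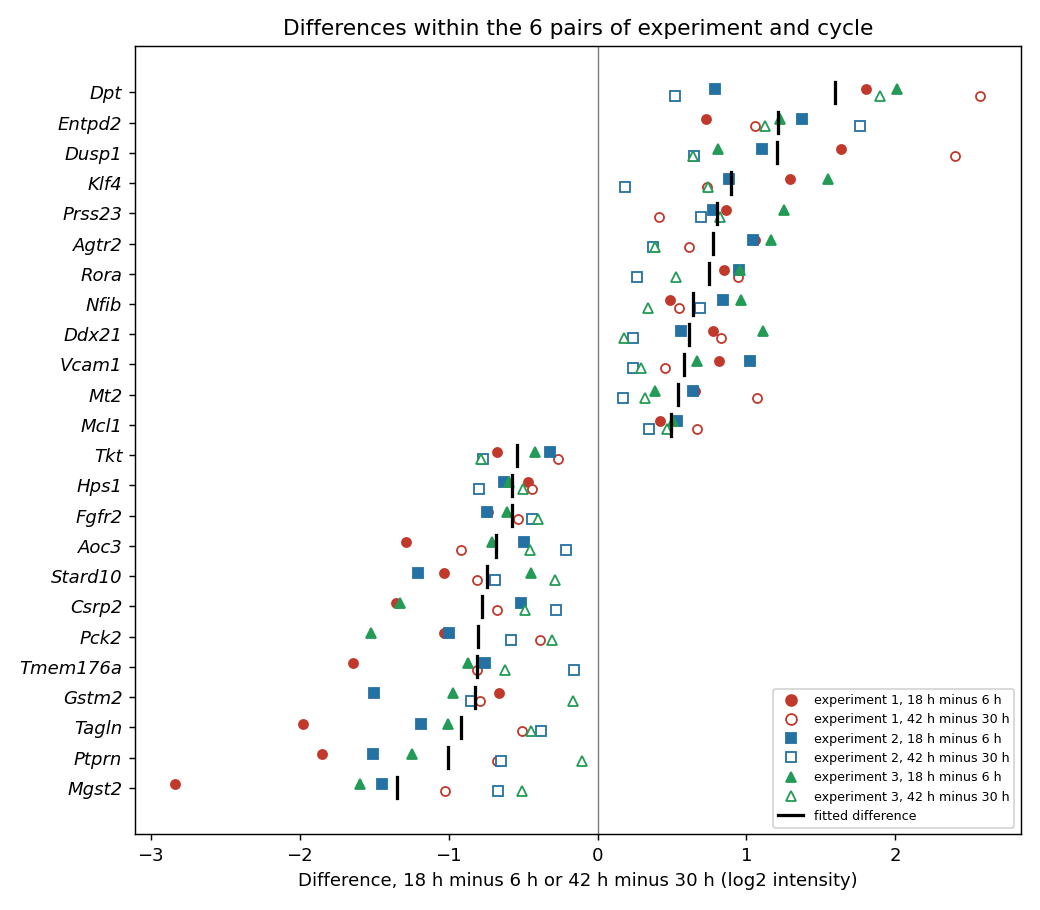
Differences within each experiment and cycle for the 12 largest called rises and 12 largest called falls, on the log2 intensity scale; filled symbols are 18 h minus 6 h, open symbols 42 h minus 30 h, colours and shapes the 3 experiments, and black bars the fitted difference. All 6 pairs of each gene lie on the same side of 0, and Dpt at 1.60 and Mgst2 at −1.35 lie at the ends.

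Called genes differed in whether they turned back between the cycles. From 18 h to 30 h the mean of 22 of 38 (57.9%) moved against their called direction, compared with 72.6% of all probe sets with the same sign in both cycles. It moved back by at least 0.5 of the called difference in 3 of 38 (7.89%), Entpd2, Ybx3 and Hps1. The share was 49.6% over all same-sign probe sets, but most of those had small differences, which any scatter in the step can exceed, so the shares cannot be compared. With a linear trend over time in place of the cycle term 0 probe sets were called (523, or 7.02%, at an unadjusted p below 0.05). All 38 kept their direction there, and 28 of 38 had an unadjusted p below 0.05.

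Entpd2, which encodes a cell-surface enzyme that breaks down extracellular nucleotides, went up, down and up again. At 18 h it read 8.30, 8.71 and 8.29 in experiments 1 to 3 and at 42 h 8.08, 9.17 and 8.10, against 7.57, 7.34 and 7.06 at 6 h and 7.02, 7.41 and 6.97 at 30 h. Every array at 18 h and 42 h was above every array at 6 h and 30 h. The difference was 1.21 ± 0.16, or 2.32-fold (adjusted p = 0.0109), with 1.11 in the first cycle and 1.32 in the second and a step of −1.30 from 18 h to 30 h. With the linear trend it was 1.26 and had the adjusted p nearest to a call, 0.0546, and without the experiment 1 arrays labelled 18 h and 30 h it was 1.22 (adjusted p = 0.0918). The SD between experiments was 0.86 at 12 h and 0.73 at 36 h (n = 3), against 0.24 at 18 h and 0.62 at 42 h.

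Dpt, which encodes the matrix protein dermatopontin, had the largest rise, 1.60 ± 0.22 or 3.03-fold (adjusted p = 0.0109). Its levels ran from 7.57 to 11.60 with a median of 9.41 at 18 h and 42 h, and from 6.63 to 9.03 with a median of 7.93 at 6 h and 30 h, so the phases overlapped. The means climbed from 7.03 at 6 h to 8.56 at 18 h, stood at 8.68 at 30 h and reached 10.35 at 42 h. The mean step from 18 h to 30 h was 0.12, but the experiments went apart there: Dpt fell from 9.48 to 9.03 in experiment 1 and from 8.64 to 8.19 in experiment 3, and rose from 7.57 to 8.83 in experiment 2.

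Dusp1, which encodes a phosphatase that inactivates MAP kinases, was lowest at 6 h, with 8.49, 8.62 and 8.77, and rose to 10.12, 9.73 and 9.58 at 18 h. It read 9.47, 9.32 and 9.36 at 30 h and 11.86, 9.97 and 10.00 at 42 h. The lowest array of the 18 h and 42 h phase, 9.58, lay just above the highest of the other, 9.47, and the experiment 1 array at 42 h stood far above the rest. The difference was 1.21 ± 0.22 (adjusted p = 0.0374), and the mean fell back by 0.43 from 18 h to 30 h. Klf4, a Kruppel-like transcription factor, rose by 0.90 ± 0.17 (adjusted p = 0.0428), from a median of 10.60 to 11.34, but went on rising by 0.30 from 18 h to 30 h. Mcl1, a survival factor of the BCL2 family, rose by 0.49 ± 0.08 (adjusted p = 0.0215) and was nearly the same in the first cycle, 0.49, and the second, 0.49, with a step of −0.06 between them.

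Among the other rises Prss23, a serine protease gene, rose by 0.80, Agtr2, an angiotensin II receptor, by 0.77, and Nfib, a transcription factor of the NFI family, by 0.64. Ddx21, a nucleolar RNA helicase, rose by 0.62, Vcam1, an adhesion molecule, by 0.58, and Mt2, a metallothionein, by 0.54. The steps of these 6 genes from 18 h to 30 h lay between −0.16, for Vcam1, and 0.21, for Agtr2, so their 30 h level stayed near the 18 h level. The brightest probe set of Vcam1 gave this rise, while its dimmer sets gave 0.34 and 0.32 without passing. In the second cycle the pairs of experiments 1 to 3 were −0.03, −0.13 and 0.01 in the set at 0.34. They were 0.07, −0.36 and −0.05 in the set at 0.32, so both rose in every experiment in the first cycle only. A dimmer set of Nfib gave 0.30. Smaller rises were called for Hspa5, the endoplasmic reticulum chaperone BiP, at 0.46 ± 0.07, and for Ctsd, the lysosomal protease cathepsin D, at 0.47 ± 0.09, with steps from 18 h to 30 h of 0.10 and −0.20. Col3a1, a collagen gene, was called by 2 of its probe sets, at 0.66 and 0.55, but not by its brightest.

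**Figure D2:**
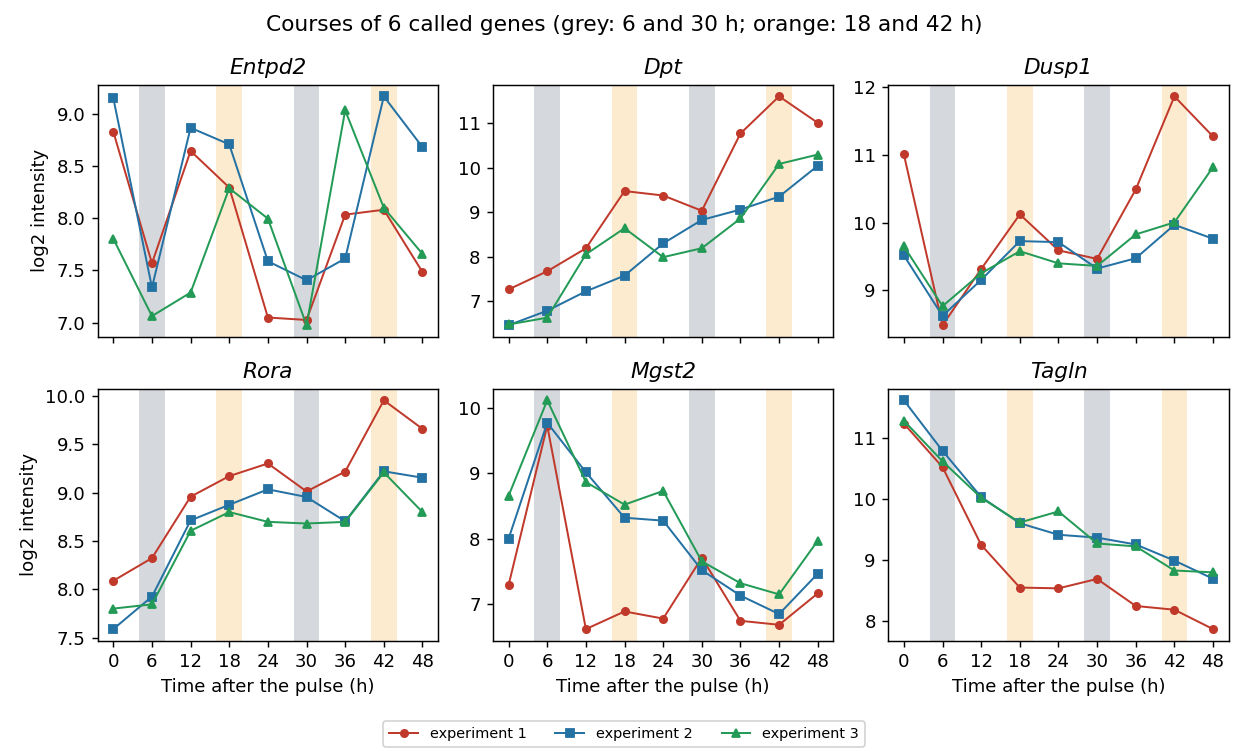
Log2 intensity of 6 called genes against time after the pulse in hours, 1 line and symbol for each experiment; grey bands mark 6 h and 30 h and orange bands 18 h and 42 h. Entpd2 dips at both grey bands, Dpt and Rora are higher late than early in the course, and Tagln falls through the course, from a mean of 10.65 at 6 h to 8.67 at 42 h.

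The largest fall was that of Mgst2, a microsomal glutathione transferase, by 1.35 ± 0.26 on the log2 scale, or 2.54-fold (adjusted p = 0.0428). It read 9.72, 9.77 and 10.11 at 6 h and 6.89, 8.32 and 8.52 at 18 h, then 7.71, 7.52 and 7.65 at 30 h and 6.68, 6.85 and 7.15 at 42 h. The 6 h arrays stood above all others, and the 18 h arrays of experiments 2 and 3 were above the 30 h arrays, so the phases overlapped. The difference was −1.96 in the first cycle and −0.73 in the second, and the 42 h mean of 6.89 lay close to the lowest mean that passed the filter, 6.77. Gstm2, a cytosolic glutathione transferase, fell by 0.82 ± 0.13 (adjusted p = 0.0215) and came back by 0.30 at 30 h, and Mgst2 had a step of −0.28. A dimmer probe set of Gstm2 gave 0.18 ± 0.15. Tkt, transketolase of the pentose phosphate pathway, fell by 0.54, with a step of −0.09.

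Tagln, transgelin, an actin-binding protein of smooth muscle and fibroblasts, fell by 0.91 ± 0.17 (adjusted p = 0.0428), from a median of 9.95 to 8.91. Csrp2, a LIM domain protein that binds actin partners, fell by 0.77 ± 0.15. Neither came back at 30 h, with steps of −0.15 and −0.23. The list of actin cytoskeleton and SRF target genes, to which both belong, had 22 members tested, of which these 2 were lower and 0 were higher, beside 17 of 5643 genes in each direction (0.603% called in all), and its median difference was −0.01. The list of oxidative stress and NRF2 target genes had 30 members tested, of which Mgst2, Gstm2 and Tkt were lower and 0 were higher, beside the same 0.603% of all genes, with a median of 0.05 and 17 of 30 above 0.

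The other falls were of varied function. Ptprn, a receptor-type phosphatase of secretory granules, fell by 1.01 ± 0.18 (adjusted p = 0.037), from a mean of 12.38 at 6 h to 10.84 at 18 h and 10.27 at 42 h. Tmem176a, a membrane protein gene, fell by 0.81, Pck2, the mitochondrial phosphoenolpyruvate carboxykinase, by 0.80, Stard10, a lipid transfer protein, by 0.74, and Aoc3, an amine oxidase, by 0.68. Their steps from 18 h to 30 h were −0.18, 0.20, 0.30 and 0.09, and that of Ptprn was −0.09. Fgfr2, a fibroblast growth factor receptor, fell by 0.58, while its dimmer probe set that passed the filter gave −0.21 ± 0.41, and the step of the brighter set was 0.03. Hps1, a gene of lysosome-related organelles, fell by 0.57 ± 0.09 (adjusted p = 0.0215), by −0.57 in the first cycle and −0.58 in the second, with a step back of 0.30. Its 6 h levels of 9.30, 9.92 and 9.96 and 30 h levels of 9.06, 9.52 and 9.78 stood in each experiment above the next 18 h or 42 h level. Another probe set of Hps1 gave 0.04 ± 0.10, so the 2 disagree.

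**Figure D3:**
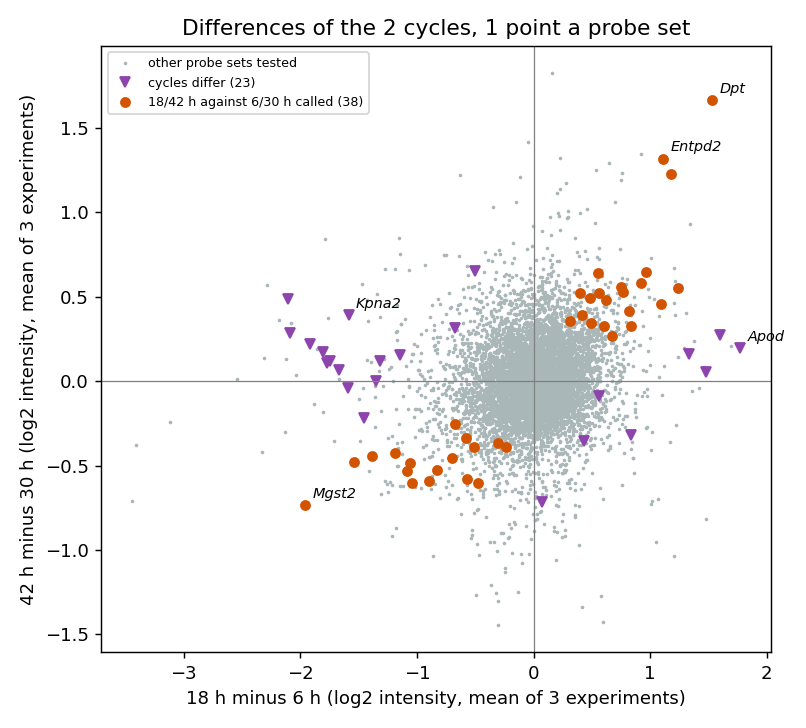
Difference in the second cycle (42 h minus 30 h) against that in the first (18 h minus 6 h), log2 intensity, means of 3 experiments, 1 grey point for each other probe set tested. The 38 called probe sets (orange circles) lie in the corners of equal sign, and the 23 whose cycles differ (purple triangles) lie mostly along the horizontal axis.

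Clock genes were examined with and without the experiment 1 arrays labelled 18 h and 30 h. Of 24 core clock and PAR bZIP genes sought, 18 were on the array and 16 passed the filter. Rora was the only one of the 16 called. It rose by 0.75 ± 0.11 (adjusted p = 0.0154), from 8.32, 7.93 and 7.85 at 6 h to 9.17, 8.88 and 8.80 at 18 h, and from 9.01, 8.96 and 8.68 at 30 h to 9.96, 9.22 and 9.21 at 42 h. Rora rose in all 6 pairs but kept its level from 18 h to 30 h, with a step of −0.07. Of the 16, 11 were higher in both cycles and 1 was lower in both, beside 1566 and 1609 of all 5643 genes. The 11 include Arntl, at 0.01 in the first cycle, and Cry2 and Per1, at 0.001 and 0.008 in the second.

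Per3, a period gene, read 8.41, 9.03 and 9.02 at 6 h in experiments 1 to 3 and 8.89, 10.22 and 9.82 at 18 h. It read 10.49, 8.81 and 8.62 at 30 h and 9.59, 9.65 and 10.02 at 42 h. In experiments 2 and 3 it rose, fell and rose again, and in experiment 1 the highest of these arrays was the one labelled 30 h. The difference was 0.64 ± 0.31 (adjusted p = 0.310) with all 12 arrays and 1.12 ± 0.13, or 2.17-fold (adjusted p = 0.023), without the experiment 1 arrays labelled 18 h and 30 h.

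Dbp, the PAR bZIP factor, read 7.60, 6.25 and 6.77 at 6 h and 7.63, 8.44 and 7.57 at 18 h, then 10.21, 4.71 and 6.52 at 30 h and 9.0, 6.67 and 7.96 at 42 h. At 30 h the 3 experiments were spread from 4.71 to 10.21. The experiment 2 levels at 6, 30 and 42 h and the experiment 3 level at 30 h lay below the lowest mean that passed the filter, 6.77. The difference was 0.87 ± 0.54 with all arrays and 1.70 without the same pair of arrays (adjusted p = 0.114), so it did not pass in either case. Nr1d2, encoding REV-ERB beta, moved from 0.56 to 1.35 (adjusted p = 0.0918), Tef from 0.23 to 0.72 and Nr1d1, encoding REV-ERB alpha, from 0.23 to 0.62, none of them passing. Per2, a period gene, was below the filter with a mean level of 6.41, and its difference was 0.76 ± 0.36 with all arrays and 1.17 ± 0.31 without them.

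In the 4 pairs of experiments 2 and 3, 6 of the 16 clock genes were higher at 18 h or 42 h every time, namely Per3, Dbp, Nr1d2, Tef, Nr1d1 and Rora, compared with 9.96% of all probe sets. Arntl, whose protein pairs with CLOCK, and Csnk1d, a casein kinase that acts on period proteins, were lower in all 4 pairs, so that 8 of 16 had 1 sign throughout, against 19.8% of all probe sets. Csnk1d was counted by its brightest probe set, at −0.11 with all arrays. Its dimmer sets that passed the filter gave 0.08, 0.16 and −0.28, so the sign of Csnk1d depended on the probe set. Arntl read 8.37 and 8.86 at 6 h, 8.09 and 8.76 at 18 h, 8.86 and 9.04 at 30 h and 8.70 and 8.83 at 42 h in experiments 2 and 3, with the largest step within a cycle, −0.29, in the first cycle of experiment 2. In experiment 1 the array labelled 18 h read 9.37 and that labelled 30 h 7.55. Its difference was 0.13 with all arrays and −0.26 without that pair, so the sign turned and neither value passed (adjusted p = 0.825 and 0.415).

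Cry1, a cryptochrome gene, differed by 0.47 ± 0.18 (adjusted p = 0.211), with 0.85 in the first cycle and 0.09 in the second. Cry2 read a difference of 0.27, Bhlhe40 0.29, Per1 0.15, Clock 0.04, Csnk1e 0.05, Nfil3 0.04 and Timeless −0.07, all without passing. Of 13 genes of the core clock list 7 went up, down and up in their means (53.8%), against 20.1% of 5643 genes. These means include the experiment 1 arrays labelled 18 h and 30 h, and no such count was made without them. The 7 include Arntl, with mean steps of 0.01, −0.26 and 0.26, although it went down, up and down in experiments 2 and 3. They also include Cry2, whose step in the second cycle was only 0.001. The median difference of the list was 0.23, against −0.00 over all genes. All 14 tested members of a list of circadian genes of peripheral tissues, which shares most of these genes, had a difference above 0, with a median of 0.23 and 0 called. Without the experiment 1 arrays labelled 18 h and 30 h, Arntl, Nfil3 and Nampt read −0.26, −0.07 and −0.02. The other members stayed above 0, and the list median was 0.26.

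**Figure D4:**
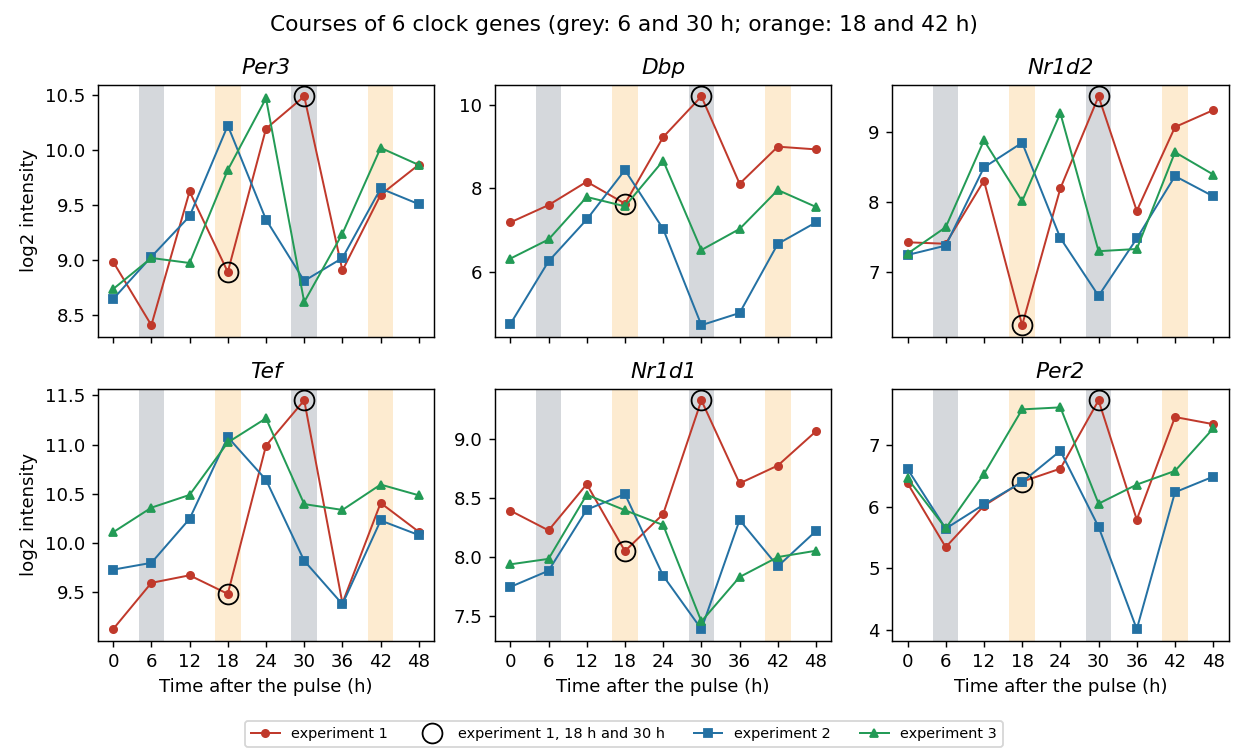
Log2 intensity of 6 clock genes against time after the pulse in hours, 1 line for each experiment; grey bands mark 6 h and 30 h, orange bands 18 h and 42 h, and black rings the experiment 1 arrays labelled 18 h and 30 h. The ringed 30 h array is the highest of the 3 experiments at that time in all 6 genes, with Dbp at 10.21.

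Cholesterol synthesis genes followed the opposite course in their means, though none passed the test. Of 11 genes tested 10 were lower at 18 h and 42 h, with a median of −0.30, and 9 (81.8%) went down, up and down from 6 h to 42 h, against 20.4% of all 5643 genes. The mean of all 11 was higher at 30 h than at 18 h, by a median of 0.39. By experiment 9, 9 and 11 of the 11 rose from 18 h to 30 h, with median steps of 0.36, 0.56 and 0.48, while the median level of the list did not turn in experiment 2, with 10.64, 10.44, 10.42 and 10.40 at 6, 18, 30 and 42 h. With the linear trend 7 of 11 (63.6%) had an unadjusted p below 0.05, against 7.02% of all genes. Mvd, mevalonate diphosphate decarboxylase, had the smallest p of the list in the phase comparison, with a difference of −0.49 ± 0.11 (adjusted p = 0.0616) and all 6 pairs below 0. It read 8.59, 9.41 and 8.88 at 6 h and 7.86, 8.82 and 8.41 at 18 h, then 8.27, 9.38 and 8.57 at 30 h and 7.69, 9.06 and 8.35 at 42 h. Fdps, Idi1 and Nsdhl, enzymes of the same pathway that were chosen after their values were seen, differed by −0.50, −0.50 and −0.43 with adjusted p-values of 0.118, 0.168 and 0.102. The list median was −0.50 without experiment 2, whose second cycle gave 0.05, and −0.35 without the experiment 1 arrays labelled 18 h and 30 h.

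Immediate early genes, which cells switch on within minutes of a stimulus, were mostly higher at 18 h and 42 h. Of 21 tested, 3 were called higher (Dusp1, Klf4 and Mcl1), 0 lower, and 18 were above 0, with 0.603% of all genes called. The list median was 0.49, and 12 of 21 (57.1%) went up, down and up in their means, against 20.1% of all genes. By experiment 4, 12 and 9 of the 21 were higher at 30 h than at 18 h, with median steps of −0.25, 0.02 and −0.01. A clear step back was thus seen in experiment 1 only, between its arrays labelled 18 h and 30 h. Dusp6, a further MAP kinase phosphatase, chosen after its value was seen, differed by 0.97 ± 0.22 (adjusted p = 0.0616), and Fos by 0.99 ± 0.41. Experiment 1 weighed in this list: its array at 42 h had a list median of 10.16, against 9.26 and 9.25 in experiments 2 and 3, and without experiment 1 the median difference was 0.26. Of 19 cyclic AMP and CREB target genes 1 was called, Dusp1 again, and the list median was 0.11.

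Many cell division genes fell from 6 h to 18 h, and the list medians showed no like fall from 30 h to 42 h. The comparison of 18 h with 6 h alone called 379 probe sets (5.09%), 151 higher (2.03%) and 228 lower (3.06%). Of 32 genes of G2 and mitosis 26 were lower at 18 h than at 6 h, with 3.47% of all genes lower, and their median step was −1.44. From 30 h to 42 h the median step was 0.02 and 0 were called. That comparison called only 0.0134% of all probe sets, so the 0 says little about the list. In the phase comparison over both cycles 0 of 32 were called, beside 0.603% of all genes, and the median was −0.76. Nusap1, a spindle protein, had the smallest p of the list, with a difference of −2.08 ± 0.48 (adjusted p = 0.070), −3.44 in the first cycle and −0.71 in the second. Its second-cycle pairs were −0.69, 0.40 and −1.84 in experiments 1 to 3. Its means at 18 h and 42 h, 6.29 and 6.23, lay below the lowest mean that passed the filter, 6.77. Of 34 S phase and replication genes 11 were lower at 18 h than at 6 h, with median steps of −0.52 in the first cycle and 0.18 in the second, and 0 were called over both. By experiment, the median of the G2 and mitosis list fell from 8.78 to 7.55, from 9.79 to 8.34 and from 9.62 to 7.54 between 6 h and 18 h.

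**Figure D5:**
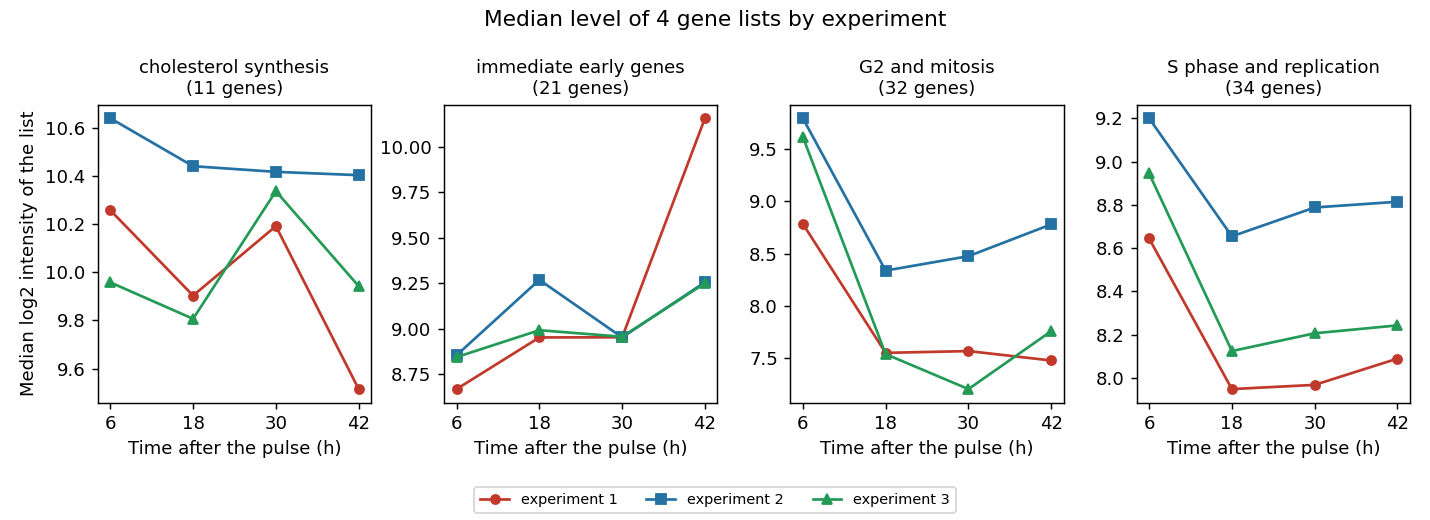
Median log2 intensity of 4 gene lists at 6, 18, 30 and 42 h after the pulse, 1 line for each experiment; the vertical scale differs between panels. Cholesterol synthesis dips at 18 h and 42 h in experiments 1 and 3, immediate early genes are highest in experiment 1 at 42 h with 10.16, and G2 and mitosis and S phase genes drop from 6 h to 18 h and lie below their 6 h level afterwards.

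The difference between the cycles was itself tested and was called for 23 probe sets (0.309%). In 21 of 23 the first cycle had the larger step, and in 16 of 23 the steps had opposite signs. Pclaf, a PCNA-associated factor, stepped by −1.92 and 0.22, Kpna2, an importin, by −1.59 and 0.39, and H2ax, a histone variant, by −0.68 and 0.32. Scd1, stearoyl-CoA desaturase, stepped by −1.45 and −0.22, and Apod, apolipoprotein D, by 1.77 and 0.20. Of the G2 and mitosis list 3 of 32 had cycles that differed. These 5 named genes read close to their 18 h level at 30 h, with steps between them from −0.06 to 0.37, except Scd1 at 0.65.

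The comparison of 42 h with 30 h alone called 1 probe set (0.0134%), that of Cryz, a quinone reductase, at −0.72 ± 0.09 (adjusted p = 0.0285), and 713 had an unadjusted p below 0.05.

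In lists of other functions few members were called, beside 0.603% of all genes and a median over all genes of −0.00. Of 44 extracellular matrix genes 1, Dpt, was called by its brightest probe set and the median was 0.08. Of 20 genes of fatty acid oxidation 0 were called and the median was −0.20, with 15 below 0. Of 26 heat shock genes 0 were called and 21 were above 0, with a median of 0.09. Of 37 genes of ribosome biogenesis Ddx21 was called, with a median of 0.11. Of 45 oxidative phosphorylation genes 0 were called, with a median of −0.03. Of 29 proteasome genes 0 were called and 25 were below 0, with a median of −0.04, and of 20 interferon response genes 0 were called and 15 were below 0, with a median of −0.15. The median was 0.14 over 17 hypoxia genes and 0.19 over 10 genes of the insulin-like growth factor axis, with 0 called in each. Of 32 lysosome and autophagy genes 1 was higher, Ctsd, and 1 lower, Npc2, a lysosomal cholesterol carrier, by 0.31.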

How the data were processed

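Total RNA was measured on 27 Affymetrix mouse U74v2 arrays, and the authors deposited 1 linear intensity for each probe set, scaled by the authors to a common trimmed mean, from 500.32 to 500.36 on the 12 arrays. For the algorithm, the software name was not given in the sources used here. Intensities were taken as log2(intensity + 12.1), the 10th percentile, so folds understate changes of dim probe sets, and quantile normalized over all 27 arrays. A filter at the 40th percentile of mean level kept 7453 probe sets, and genes are their brightest probe set (5643 genes).

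The phase fit in limma 3.58.1 (R 4.3.3) had experiment and cycle as blocks on the 12 arrays (7 residual degrees of freedom). A fit of 4 time means gave each cycle, their difference and the step from 18 h to 30 h. The code was tested on simulated data. Experiment numbers paired the samples: deviations from the time means correlated at r of 0.323 to 0.584 across probe sets within experiments.

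Named genes were the 12 largest called rises and falls with equal signs, all clock genes, up to 3 called members (or the smallest p) of each of 31 lists, and the 5 smallest p for differing cycles. The comparison, members and lists were chosen with earlier results of these data known. Alternatives changed scaling, pseudocount, filter, variance model, weights, blocks, trend and arrays. No detection calls were used.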

Additional observations from a re-analysis of the deposited data

Results flagged for a closer look

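Of 65 named genes whose 6 pair differences were checked for a value far from the others, 2 had one, and chance flags about 1 in 20. Hk2, hexokinase 2, differed by 2.77 in the second cycle of experiment 1, from 7.48 at 30 h to 10.25 at 42 h, against 0.63 and 0.64 in that cycle of experiments 2 and 3. Ifi202b, an interferon-inducible gene, differed by 2.36 in the same pair. Both pairs use the experiment 1 array labelled 30 h and the 42 h array in which immediate early genes were also highest.

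A difference between the cycles was called for 23 probe sets. The second cycle minus the first was 2.13 for Pclaf, 1.98 for Kpna2, 1.24 for Scd1, 0.99 for H2ax and −1.58 for Apod. Without the experiment 1 arrays labelled 18 h and 30 h the count was 1, a probe set with no gene name here.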

How the results depend on the processing

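The number of probe sets called between the phases, 38, depended on the settings. It was 59 on the scaling as deposited, 22 with arrays centred on their medians, 15 without a filter on dim probe sets, 99 with the filter at the 60th percentile, and 1 (Entpd2) without the intensity trend. All had equal signs in both cycles. Centring changed the split, from 55.3% higher to 31.8% higher (7 higher and 15 lower). It was 0 with no replicate block, 10 with the replicate block as 6 pairs (all among the 38), 1 (Entpd2) with no cycle term, 0 with a linear trend and 1 (Per3) without the experiment 1 arrays labelled 18 h and 30 h. All 27 arrays in one fit gave 378 (354 of equal sign), 4 time means, added after the data were seen, gave 247 (231 of equal sign, all 38 among them), and the linear trend without those arrays, also added, gave 0. Leaving out an experiment gave 0 to 1.

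For 18 h against 6 h, 379 calls became 194 without the intensity trend, 4 with no replicate block, 150 without those arrays and 25 to 183 without an experiment. For 42 h against 30 h, 1 call became 0 with centring, without the intensity trend, with no replicate block and without those arrays, and 9 with all 27 arrays, and was 1 to 1 without an experiment, though not the same call: Cryz at −0.72 gave way to Zfp94 at −1.82 without experiment 1, Dpt at 2.23 without experiment 2 and an unnamed probe set at 1.41 without experiment 3. For differing cycles, 23 calls became 35 with the pseudocount at the 25th percentile, 7 without a filter, 0 without the intensity trend, 73 with array weights, 0 with no replicate block, 62 with all 27 arrays, 1 without those arrays and 0 to 2 without an experiment. The cause of these changes was not tested, except that fewer arrays or more probe sets enter some fits. No called named gene changed direction under any setting run. Little else was possible, since all 6 pairs of each such gene had 1 sign, so this is no separate support. With 3 experiments and no detection calls, dim genes are measured least well, such as Per2, Dbp, Nusap1 at 18 h and 42 h, and Mgst2 at 42 h.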
